A study of Mus musculus with 16 samples.

Results

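Progress from the G1 phase of the cell cycle into DNA synthesis depends on G1 cyclins and is held back by inhibitors of the cyclin-dependent kinases (CDKs). The genes described are the D cyclins Ccnd1, Ccnd2 and Ccnd3, the E cyclins Ccne1 and Ccne2, the Cip/Kip inhibitors Cdkn1a and Cdkn1b, and the INK4-locus and INK4-family inhibitors Cdkn2a, Cdkn2c and Cdkn2d. They are 10 of 18194 genes measured and were chosen by name. All 10 had at least 1 probe set annotated to that gene alone, 23 in all, and the brightest of a gene on average stands for it unless another is named.

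The study compared mouse neural crest stem cells, a multipotent migratory population of the embryo, with the same cells primed towards a fate by instructive growth factors. The RNA of 16 samples was hybridised to Affymetrix arrays, with 4 arrays a group: glia-primed cells, neuron-primed cells (titled as autonomic), mesenchyme-primed cells and unprimed cells. All were described as primary mouse crest material grown in crest stem cell medium. The treatment note was worded alike for all 16 samples, so the groups rest on the cell type label. The growth factors, the exposure time, the strain and the embryonic age were not given in the labels. Nothing states that replicates came from separate cultures, so p-values measure the spread between these arrays, which may be technical.

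D cyclins are made in response to mitogens and activate CDK4 and CDK6, which phosphorylate the retinoblastoma proteins and release E2F transcription factors. E cyclins, themselves E2F targets, activate CDK2 at the entry into S phase. Cdkn1a (p21, a p53 target) and Cdkn1b (p27) encode inhibitors that bind cyclin-CDK complexes, while Cdkn2c (p18) and Cdkn2d (p19Ink4d) encode INK4 proteins that bind CDK4 and CDK6. Cdkn2a encodes both an INK4 protein, p16, and the p53 activator p19Arf. In neural progenitors a long G1 phase and exit from the cycle commonly go with differentiation.

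Values are log2 of the deposited intensities, and changes are differences of group means on that scale. All 8 crest markers listed, among them Sox10 and Erbb3, lay above the array median (3.05 to 3.15), whereas 0 of 3 measured blood and 0 of 4 endothelial markers did. Of the lineage markers, 2 of 4 Schwann and glial and 2 of 4 autonomic neuron genes lay above it, with Gfap and Th below. Above the median also lay 4 of 5 neural tube, 2 of 4 epithelial and 1 of 4 skeletal muscle and somite markers. The neural tube list averaged 2.37 to 4.13 over glia-primed, 2.70 to 6.51 over neuron-primed, 3.21 to 5.99 over mesenchyme-primed and 3.29 to 6.77 over unprimed arrays, with 0 of 5 passing by limma and 0 at an unadjusted p under 0.05 in each primed group. Of the 8 crest markers, Ngfr alone passed by limma against unprimed cells after glial or neuronal priming, and it read lower. Its change was -1.87 with glial priming (adjusted p = 0.0479) and -2.75 with neuronal priming (adjusted p = 0.00554). With mesenchymal priming 0 of the 8 passed. Neuron-primed replicate 1 stood apart from the other neuron-primed arrays on the first principal component, which held 14.4% of the variance. It lay at -39.7, among the unprimed arrays (-49.6 to -21.2), as did mesenchyme-primed replicate 3 at -24.8. The 3' to 5' log2 ratio of the Gapdh control probe sets, a measure of RNA integrity, was 2.95 ± 0.39 on glia-primed, 2.85 ± 0.24 on neuron-primed, 2.96 ± 0.22 on mesenchyme-primed and 2.35 ± 0.19 on unprimed arrays (SD, n = 4 each). The same ratio of the actin control probe sets ran from -0.24 to -0.07, -0.92 to -0.29, -0.40 to -0.08 and -0.70 to -0.39 in this order of groups. By that ratio glia-primed arrays lay above the unprimed range, neuron-primed arrays spanned it and mesenchyme-primed arrays overlapped with it. The 6 mesenchyme and smooth muscle markers averaged 5.64 to 6.28 over glia-primed, 5.21 to 7.23 over neuron-primed, 4.999 to 7.16 over mesenchyme-primed and 3.65 to 5.39 over unprimed arrays, and 0 of them passed by limma in glia-primed, neuron-primed or mesenchyme-primed cells, where 3, 3 and 1 were higher at an unadjusted p under 0.05. Xist, made from the inactive X chromosome, spanned 2.61 to 5.34, 3.15 to 10.6, 2.68 to 11.2 and 6.39 to 10.5 in the same order of groups. The part of these measures in the results below was not tested. Fits with the Gapdh ratio or Xist as a covariate called 0 of the 10 genes, but so did the fit without them. Over all genes, limma called 93, 79 and 4 in glia-primed, neuron-primed and mesenchyme-primed cells. With the Gapdh ratio as a covariate these were 30, 33 and 1, and with Xist 26, 81 and 1. Fewer cells of a type and less RNA per cell cannot be told apart in these bulk samples.

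None of the 10 genes passed the test in any of 7 comparisons, with limma's moderated test adjusted over all genes at 0.05. Against unprimed arrays, 0 of 10 were called in glia-primed cells, where 0.511% of all genes were called, 0 of 10 in neuron-primed cells (0.434% of all genes) and 0 of 10 in mesenchyme-primed cells (0.022%). For the mean of the primed groups 0 of 10 were called, beside 0.445% of all genes. At an unadjusted p under 0.05 there was 1 of the 10 in each of these 4 comparisons, against 9.91%, 9.8%, 7.7% and 10.2% of all genes. Levels of primed and unprimed arrays failed to overlap for 0 of the 10 in glia-primed (7.18% of all genes), neuron-primed (5.53%) and mesenchyme-primed cells (5.69%) and for 0 of the 10 when all primed arrays were set against the unprimed ones (0.583%). With so few genes called anywhere, a count of 0 in 10 is near the background. The intervals given below, for some of the changes, describe the leading probe set alone. Several other Ccnd2 probe sets gave glia-primed changes outside the interval of the leading one.

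**Figure D1:**
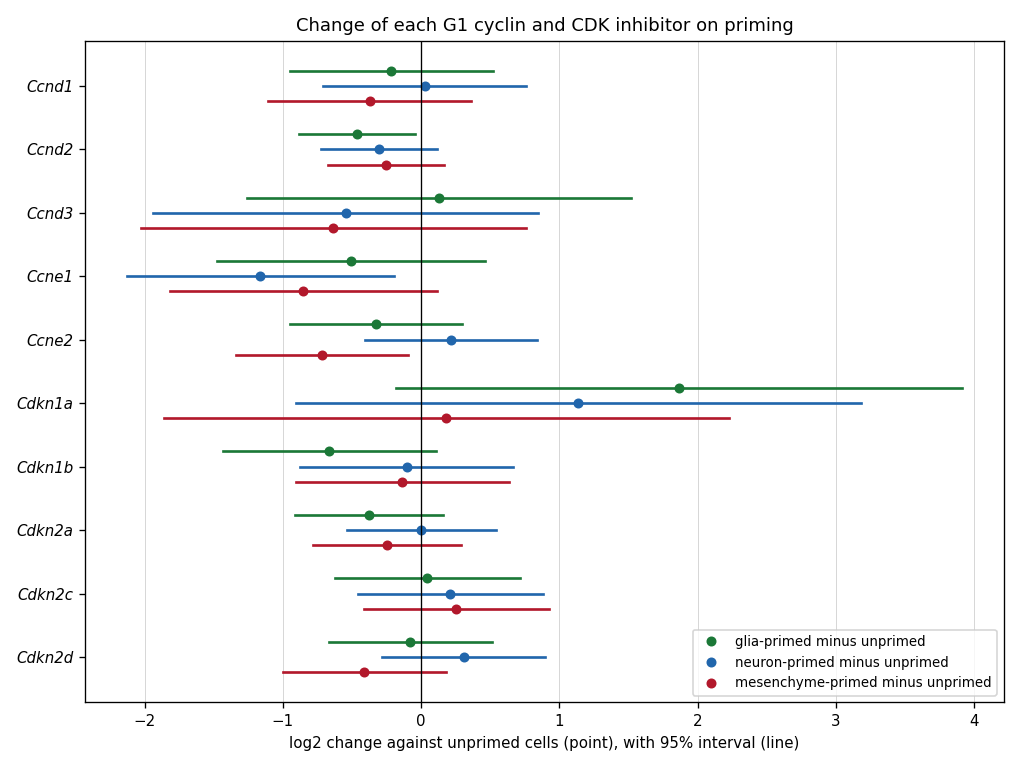
Log2 change of each G1 cyclin and CDK inhibitor against unprimed cells (x axis), with 1 row per gene and, from top to bottom within it, glia-primed, neuron-primed and mesenchyme-primed cells. Points are differences of group means over 4 arrays each and lines are unadjusted 95% intervals. Ccnd2, Ccne1 and Cdkn1b lie left of 0 in all 3 primed groups, Cdkn1b by 0.10 to 0.66, and the intervals of Cdkn1a are the widest.

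In glia-primed cells 3 read higher and 7 lower, with a median change of -0.27, against -0.01 over all genes. In neuron-primed cells 6 read higher and 4 lower (median 0.01, all genes 0.00), and in mesenchyme-primed cells 2 read higher and 8 lower (median -0.31, all genes -0.01). The 5 cyclins had medians of -0.33, -0.30 and -0.63 in these comparisons, and the 5 inhibitors -0.08, 0.21 and -0.14. These comparisons share the unprimed arrays.

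**Figure D2:**
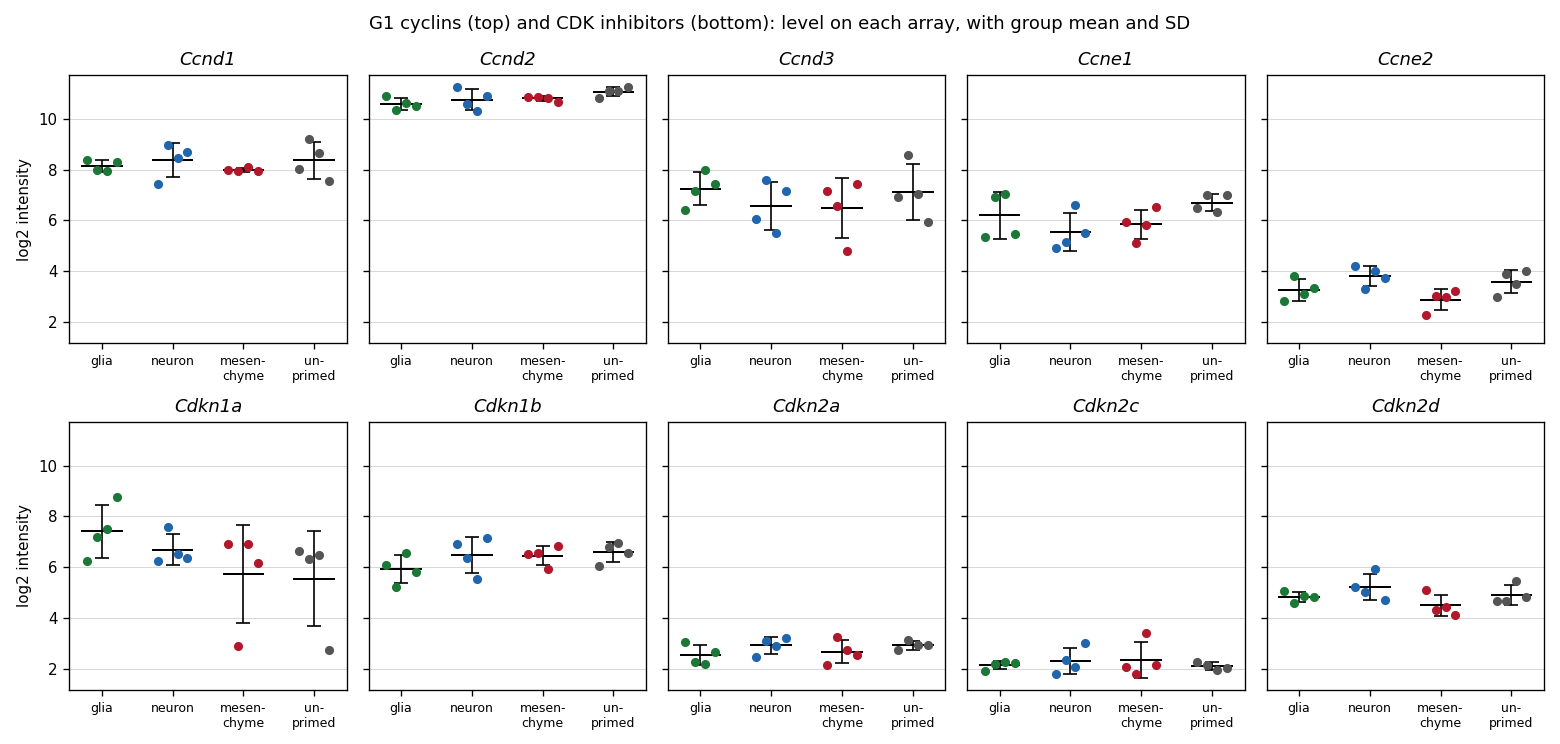
Level of each gene on each array (log2 intensity, y axis), with cyclins above and CDK inhibitors below, and glia-primed, neuron-primed, mesenchyme-primed and unprimed groups from left to right. Points are arrays in replicate order, bars are the group mean and SD (n = 4). Each primed group overlaps with the unprimed arrays in every panel, and Cdkn1a has a single low array in the mesenchyme-primed and in the unprimed group.

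Ccnd2, a D cyclin, read lower after priming on each of its 7 probe sets, without passing the test. Its leading probe set read 10.90, 10.34, 10.63 and 10.49 on glia-primed arrays, 11.25, 10.57, 10.31 and 10.88 on neuron-primed arrays, 10.87, 10.86, 10.83 and 10.64 on mesenchyme-primed arrays and 10.81, 11.07, 11.11 and 11.23 on unprimed arrays. Unprimed arrays were high, but glia-primed replicate 1, neuron-primed replicates 1 and 4 and mesenchyme-primed replicates 1 to 3 reached into their range. The change was -0.46 in glia-primed cells (SE 0.20, 95% interval -0.88 to -0.04, limma adjusted p = 0.441), -0.30 in neuron-primed cells (adjusted p = 0.675) and -0.25 in mesenchyme-primed cells (adjusted p = 0.807). The neuron-primed value was -0.47 without neuron-primed replicate 1 and -0.16 without neuron-primed replicate 3. The intervals, here and below, are not adjusted for the number of genes.

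The 7 Ccnd2 probe sets report the same gene and are not independent measurements. Their changes, all negative, ran from -1.73 to -0.46 in glia-primed cells, from -0.92 to -0.25 in neuron-primed cells and from -1.78 to -0.07 in mesenchyme-primed cells. In glia-primed cells the leading probe set gave -0.46 and the other 6 gave -0.46, -0.52, -1.01, -1.57, -1.71 and -1.73.

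The probe set 1416123_at of Ccnd2 read 8.15, 8.41, 8.35 and 8.48 on glia-primed arrays, 9.96, 8.94, 8.39 and 9.30 on neuron-primed arrays, 7.96, 8.69, 8.19 and 8.33 on mesenchyme-primed arrays and 10.39, 9.54, 9.30 and 11.06 on unprimed arrays. Every glia-primed and mesenchyme-primed array lay below every unprimed one, whereas neuron-primed arrays overlapped with them. Its changes were -1.73 (SE 0.37, limma adjusted p = 0.0685 in a fit of all 34958 probe sets with a single gene), -0.92 (adjusted p = 0.454) and -1.78 (adjusted p = 0.181). Groups did not overlap in 3 of the 7 Ccnd2 probe sets for glia-primed cells (6.52% of all probe sets), in 0 of 7 for neuron-primed cells (5.36%) and in 3 of 7 for mesenchyme-primed cells (5.46%).

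The probe set 1448229_s_at of Ccnd2 gave -1.71 in glia-primed cells, -0.90 in neuron-primed cells and -1.70 in mesenchyme-primed cells. For the mean of the primed groups its change was -1.44 (SE 0.29), with an adjusted p of 0.0536 in limma's fit of all probe sets, and 0 of the 7 passed, beside 0.286% of all probe sets. In glia-primed, neuron-primed and mesenchyme-primed cells 0 of the 7 passed as well, where 0.366%, 0.346% and 0.00286% of all probe sets did.

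**Figure D3:**
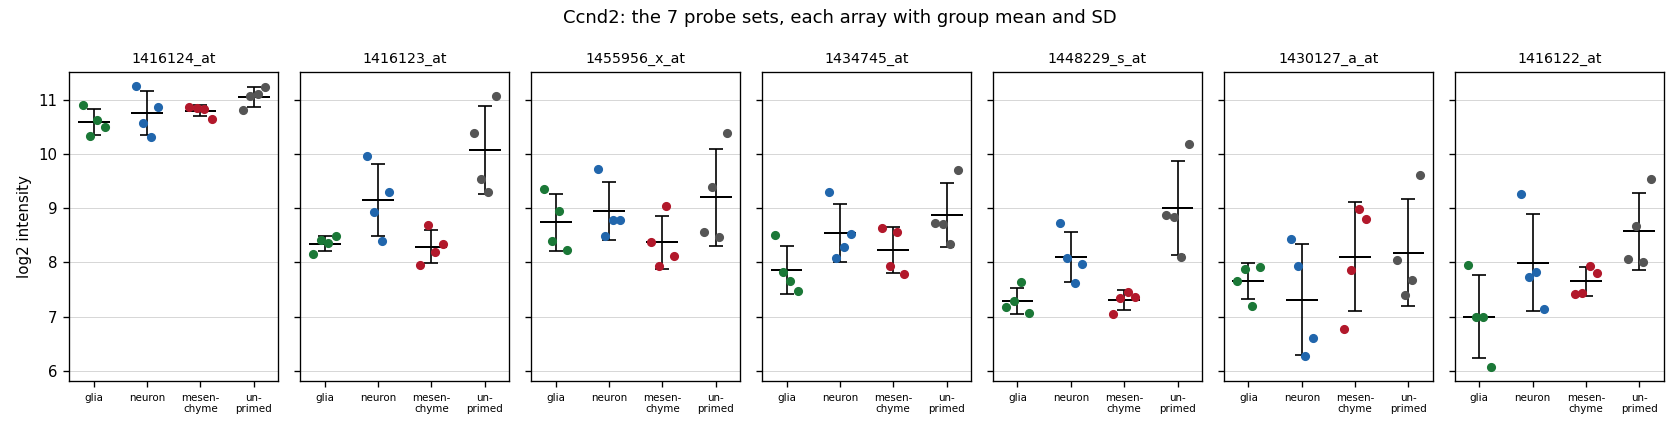
The 7 probe sets of Ccnd2 in order of mean level, each array as a point with the group mean and SD (log2 intensity, y axis), and glia-primed, neuron-primed, mesenchyme-primed and unprimed groups from left to right. All group means of primed arrays lie below the unprimed mean, by 0.07 to 1.78 on the log2 scale, and the leading probe set on the left shows a small gap.

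Ccnd1, the mitogen-induced D cyclin, read 8.36, 7.97, 7.93 and 8.31 on glia-primed arrays, 7.43, 8.95, 8.44 and 8.70 on neuron-primed arrays, 7.98, 7.93, 8.09 and 7.93 on mesenchyme-primed arrays and 8.04, 9.22, 8.63 and 7.55 on unprimed arrays. The mesenchyme-primed arrays lay close together, while neuron-primed replicate 1 and unprimed replicate 4 were low within their groups. Its change was -0.22 in glia-primed cells (-0.95 to 0.52), 0.02 in neuron-primed cells (-0.71 to 0.76) and -0.37 in mesenchyme-primed cells (-1.11 to 0.36, 95% intervals). The neuron-primed change was 0.34 without neuron-primed replicate 1 and -0.25 without unprimed replicate 4, and the other probe sets of Ccnd1 gave 0.38 and 0.94 there with all arrays. None of these values passed.

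Ccnd3, the D cyclin with the widest spread, read 6.41, 7.17, 7.97 and 7.43 on glia-primed arrays, 6.05, 7.58, 5.51 and 7.15 on neuron-primed arrays, 7.15, 6.56, 4.78 and 7.44 on mesenchyme-primed arrays and 6.92, 8.57, 7.04 and 5.93 on unprimed arrays. Mesenchyme-primed replicate 3 was low, unprimed replicate 2 was high, and the groups overlapped throughout. The change was 0.13 in glia-primed cells (-1.26 to 1.52), -0.55 in neuron-primed cells (-1.94 to 0.84) and -0.63 in mesenchyme-primed cells (-2.02 to 0.76). The glia-primed value of Ccnd3 was -0.27 without unprimed replicate 4 and 0.61 without unprimed replicate 2, so its sign rests on single arrays. Without unprimed replicate 2 the neuron-primed value was -0.06, and without mesenchyme-primed replicate 3 the mesenchyme-primed value was -0.07. Both other Ccnd3 probe sets lay below the array median.

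Ccne1 encodes an E cyclin, and it read lower than unprimed cells in each primed group. It read 5.34, 6.92, 7.05 and 5.47 on glia-primed arrays, 4.90, 5.16, 6.60 and 5.49 on neuron-primed arrays, 5.93, 5.12, 5.82 and 6.52 on mesenchyme-primed arrays and 6.499, 6.98, 6.33 and 6.998 on unprimed arrays. The unprimed arrays lay close together, neuron-primed arrays were the lowest group, and in each primed group at least 1 array reached the unprimed range. The mean level was 6.19 ± 0.92 in glia-primed, 5.54 ± 0.75 in neuron-primed, 5.85 ± 0.57 in mesenchyme-primed and 6.70 ± 0.34 in unprimed cells (SD, n = 4 each).

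In neuron-primed cells Ccne1 was 2.24-fold lower (-1.16, SE 0.45, 95% interval -2.13 to -0.20), with an unadjusted p of 0.0217 and a limma adjusted p of 0.393. The changes were -0.51 in glia-primed (adjusted p = 0.785) and -0.85 in mesenchyme-primed cells (adjusted p = 0.697). Its second probe set read lower too, with changes of -0.52, -0.59 and -0.38 in glia-primed, neuron-primed and mesenchyme-primed cells. The mean of the primed groups differed from unprimed cells by -0.84 (SE 0.37, adjusted p = 0.457).

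Ccne1 is set below beside the E2F target genes, and the window around its start is therefore shown. It spans 250 bases before to 50 after the start in the RefSeq table of build GRCm38.p6, chr7:38107441-38107740, minus strand. The capitals mark the letters TCCCGC or their reverse complement, an E2F core motif searched on both strands, which begin 47 and 7 bases before the start.
Ccne1: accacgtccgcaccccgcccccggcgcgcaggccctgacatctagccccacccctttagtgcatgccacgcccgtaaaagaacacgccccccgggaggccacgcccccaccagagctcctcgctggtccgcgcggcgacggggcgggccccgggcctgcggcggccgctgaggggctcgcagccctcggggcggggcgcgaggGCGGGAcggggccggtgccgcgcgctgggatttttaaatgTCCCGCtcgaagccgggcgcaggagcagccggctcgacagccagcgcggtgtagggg
The core was in 6562 of 32851 RefSeq windows of the same length. None of the 4 longer letters TTTCCCGC, TTTGGCGC, TTTCGCGC and TTTGCCGC was in the Ccne1 window, and 2.26% of all windows held at least 1 of them. Of these, TTTCCCGC contains the core. Such a match is a description of the letters and not a bound site.

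Ccne2, the second E cyclin, was dim, and on the leading probe sets it alone of the 10 genes separated a pair of primed groups without overlap. Other probe sets did so for Ccnd1 (1, glia-primed against neuron-primed), Cdkn1b (1, glia-primed against mesenchyme-primed) and Ccnd2 (1, neuron-primed against mesenchyme-primed). Of all probe sets 2.95%, 4.3% and 4.12% did so in these pairs. Ccne2 has 1 probe set. Ccne2 read 2.81, 3.79, 3.10 and 3.34 on glia-primed arrays, 4.19, 3.31, 4.00 and 3.73 on neuron-primed arrays, 2.27, 3.03, 2.96 and 3.21 on mesenchyme-primed arrays and 2.98, 3.88, 3.48 and 4.01 on unprimed arrays. Neuron-primed arrays were high, mesenchyme-primed arrays were low and their replicates 1 to 3 lay below the lowest array median, and glia-primed and unprimed arrays lay between and overlapped with both. Against unprimed cells the change was -0.33 in glia-primed (adjusted p = 0.783), 0.22 in neuron-primed (adjusted p = 0.879) and -0.72 in mesenchyme-primed cells (SE 0.29, unadjusted p = 0.0263, limma adjusted p = 0.569).

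Cdkn1a encodes p21 and had the widest range of the 10 genes, 6.02 log2 units over the 16 arrays. It read 6.22, 7.18, 7.49 and 8.75 on glia-primed arrays, 6.24, 7.59, 6.53 and 6.37 on neuron-primed arrays, 6.92, 2.91, 6.90 and 6.18 on mesenchyme-primed arrays and 6.62, 6.34, 6.48 and 2.73 on unprimed arrays. Glia-primed replicate 4 was the highest array, and mesenchyme-primed replicate 2 and unprimed replicate 4 were far below the other arrays. The mean level was 7.41 ± 1.04 in glia-primed, 6.68 ± 0.62 in neuron-primed, 5.73 ± 1.91 in mesenchyme-primed and 5.54 ± 1.88 in unprimed cells (SD, n = 4 each).

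The Cdkn1a change was 1.87 in glia-primed cells (SE 0.96, 95% interval -0.18 to 3.91, limma adjusted p = 0.557), 1.14 in neuron-primed cells (adjusted p = 0.765) and 0.18 in mesenchyme-primed cells (adjusted p = 0.979). A single array set much of these values. Without unprimed replicate 4 they were 0.93, 0.20 and -0.75, and without mesenchyme-primed replicate 2 the mesenchyme-primed value was 1.12. At the arrays where the leading probe set read 2.91 (mesenchyme-primed replicate 2) and 2.73 (unprimed replicate 4), the other Cdkn1a probe set read 5.46 and 5.51, within the range of its other arrays. That probe set, 1421679_a_at, gave 0.52 in glia-primed cells, 0.98 in neuron-primed cells and 0.12 in mesenchyme-primed cells, and its Pearson correlation with the leading one was 0.50 over the 16 arrays.

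**Figure D4:**
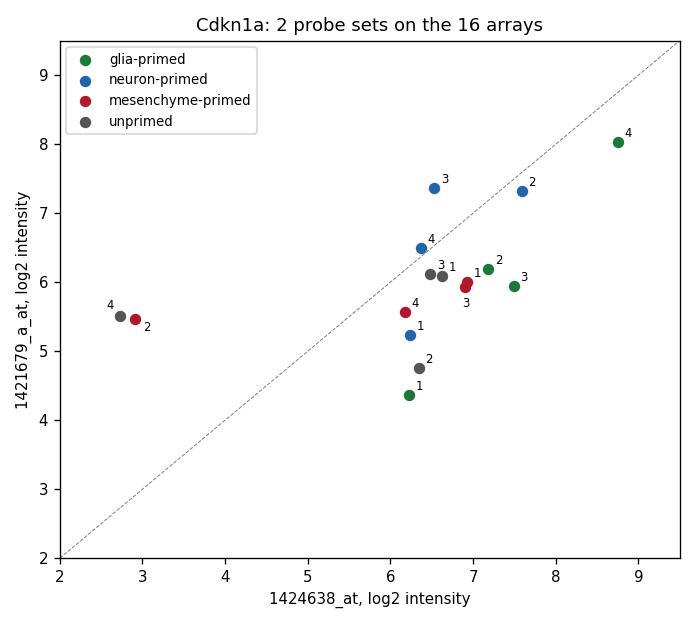
Both Cdkn1a probe sets on each of the 16 arrays (log2 intensity on both axes, the leading probe set along x), with the replicate number beside each point and a dashed line of equal values. Mesenchyme-primed replicate 2 and unprimed replicate 4 lie near 2.91 and 2.73 on the x axis but at 5.46 and 5.51 on the y axis.

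Cdkn1a is set below beside the p53 target genes. Its upstream RefSeq window, chr17:29090729-29091028 on the plus strand of GRCm38.p6, is shown for the p53 half-site, a motif searched on both strands. Both matches, which begin 73 and 51 bases before this upstream start, are in capitals. The other Cdkn1a window, chr17:29093519-29093818, held 0 matches.
Cdkn1a: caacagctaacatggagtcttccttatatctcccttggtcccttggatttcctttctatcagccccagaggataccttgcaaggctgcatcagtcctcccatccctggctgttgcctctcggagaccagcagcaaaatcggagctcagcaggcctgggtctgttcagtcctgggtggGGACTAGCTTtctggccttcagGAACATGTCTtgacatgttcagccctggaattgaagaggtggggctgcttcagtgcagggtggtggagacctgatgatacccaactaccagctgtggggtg
A match to this motif was in 8.36% of the 32851 windows. RefSeq windows were matched for 7 of the 10 genes, 11 windows in all, and 4 of these held the E2F core.

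Cdkn1b encodes p27, and it read 6.09, 5.22, 6.58 and 5.82 on glia-primed arrays, 6.91, 6.36, 5.53 and 7.15 on neuron-primed arrays, 6.54, 6.54, 5.91 and 6.83 on mesenchyme-primed arrays and 6.06, 6.78, 6.96 and 6.57 on unprimed arrays. Glia-primed arrays tended low and overlapped with all other groups. The change was -0.66 in glia-primed cells (SE 0.36, 95% interval -1.43 to 0.10, limma adjusted p = 0.586), -0.10 in neuron-primed cells (adjusted p = 0.964) and -0.14 in mesenchyme-primed cells (adjusted p = 0.959).

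The second Cdkn1b probe set, 1434045_at, read 3.64, 3.74, 4.01 and 3.67 on glia-primed arrays, 5.68, 5.61, 3.31 and 4.39 on neuron-primed arrays, 4.29, 4.41, 4.88 and 4.26 on mesenchyme-primed arrays and 4.37, 4.76, 6.32 and 5.32 on unprimed arrays. All glia-primed arrays lay below all unprimed ones, and 6.52% of all probe sets were likewise free of overlap in this comparison. Neuron-primed arrays overlapped with both groups. Its glia-primed change was -1.43 (SE 0.48, adjusted p = 0.307 in limma's fit of all probe sets), more than the leading probe set gave and in the same direction. Of the 2 Cip/Kip genes, then, Cdkn1a read higher and Cdkn1b lower in glia-primed cells, and neither difference passed.

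The Cdkn2 genes spanned 1.08 to 1.80 log2 units over the 16 arrays. Cdkn2a, which encodes p16 and p19Arf, read 3.05, 2.28, 2.18 and 2.67 on glia-primed arrays, 2.46, 3.10, 2.91 and 3.23 on neuron-primed arrays, 2.16, 3.24, 2.75 and 2.55 on mesenchyme-primed arrays and 2.72, 3.13, 2.92 and 2.92 on unprimed arrays. Most of these values lie below the array medians, glia-primed arrays tended low, and all groups overlapped. Its changes were -0.38 (-0.91 to 0.16) in glia-primed cells, 0.00 (-0.54 to 0.54) in neuron-primed cells and -0.25 (-0.79 to 0.29) in mesenchyme-primed cells. Its 1 probe set does not tell its products apart here.

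Cdkn2c, the p18 gene, was the dimmest of the 10 probe sets. It read 1.90, 2.19, 2.25 and 2.22 on glia-primed arrays, 1.81, 2.35, 2.07 and 3.02 on neuron-primed arrays, 2.07, 1.79, 3.40 and 2.14 on mesenchyme-primed arrays and 2.28, 2.15, 1.95 and 2.02 on unprimed arrays. All arrays but mesenchyme-primed replicate 3 lay below the array medians, and the groups overlapped. The changes were 0.04 in glia-primed cells, 0.21 in neuron-primed cells and 0.25 in mesenchyme-primed cells, with 95% intervals of -0.62 to 0.71, -0.46 to 0.88 and -0.42 to 0.92. For probe sets this dim, the intervals describe the spread of the readings, and signal over background was not measured.

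Cdkn2d, the p19Ink4d gene, read 5.05, 4.58, 4.86 and 4.82 on glia-primed arrays, 5.22, 5.01, 5.91 and 4.69 on neuron-primed arrays, 5.08, 4.32, 4.45 and 4.12 on mesenchyme-primed arrays and 4.69, 4.65, 5.46 and 4.81 on unprimed arrays. Neuron-primed replicate 3 was the highest array, mesenchyme-primed replicates 2 to 4 were the lowest, and no primed group was clear of the unprimed arrays. The changes were -0.08 in glia-primed (adjusted p = 0.956), 0.31 in neuron-primed (adjusted p = 0.792) and -0.41 in mesenchyme-primed cells (adjusted p = 0.767).

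Set against each other, the primed groups likewise gave no call among the 10 genes. In the comparison of glia-primed with neuron-primed cells 0 of 10 passed, beside 0.011% of all genes, and 0 of 10 reached an unadjusted p under 0.05 (6.24% of all genes) or was free of overlap (2.96%). In glia-primed against mesenchyme-primed cells it was 0 of 10 (0.225% of all genes), with 0 of 10 unadjusted (7.05%) and 0 of 10 free of overlap (4.55%). In neuron-primed against mesenchyme-primed cells it was 0 of 10 (0.346%), with 2 of 10 unadjusted (8.23%), Ccne2 and Cdkn2d.

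Ccne2 averaged 3.81 ± 0.38 in neuron-primed cells and 2.87 ± 0.41 in mesenchyme-primed cells, a difference of 0.94 (SE 0.29, 95% interval 0.32 to 1.56, limma adjusted p = 0.299). Its neuron-primed arrays (3.31 to 4.19) lay above its mesenchyme-primed arrays (2.27 to 3.21) without overlap, as did or did in reverse 4.17% of all genes, and it was 1 of the 10 to do so. Cdkn2d averaged 5.21 ± 0.52 and 4.49 ± 0.42 in these groups, a difference of 0.72 (SE 0.28, adjusted p = 0.465). For Cdkn1a the difference of glia-primed from mesenchyme-primed cells was 1.68 (adjusted p = 0.8), and 0.74 without mesenchyme-primed replicate 2.

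The other genes of G1 and S entry were taken as a list of kinases, retinoblastoma and E2F proteins and cyclin-degrading factors that comprised 37 names. Of 36 measured, 0 passed in each comparison with unprimed cells by limma. At an unadjusted p under 0.05, 0 were higher and 5 lower in glia-primed, 1 higher and 7 lower in neuron-primed, and 0 higher and 2 lower in mesenchyme-primed cells. Over all genes 0.511%, 0.434% and 0.022% passed in these comparisons, and 9.91%, 9.8% and 7.7% reached that unadjusted threshold. The medians of the list were -0.27, -0.33 and -0.30, with 28, 24 and 28 of 36 below unprimed cells. Of all genes 49.2%, 50.5% and 49.2% lay above unprimed cells, with medians of -0.01, 0.00 and -0.01.

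The CDK partners of the cyclins were among them and are named here after their values were seen. Cdk4, a partner of D cyclins, averaged 9.45 ± 0.07 in glia-primed cells, 9.76 ± 0.21 in neuron-primed cells, 9.78 ± 0.60 in mesenchyme-primed cells and 10.06 ± 0.35 in unprimed cells. Its changes were -0.61 (adjusted p = 0.442), -0.30 (adjusted p = 0.768) and -0.29 (adjusted p = 0.838). Cdk6, the other D cyclin partner, averaged 6.57 ± 0.84 in glia-primed cells, 6.04 ± 1.18 in neuron-primed cells, 5.61 ± 0.40 in mesenchyme-primed cells and 5.95 ± 0.98 in unprimed cells. It differed by 0.61 (adjusted p = 0.802), 0.09 (adjusted p = 0.985) and -0.34 (adjusted p = 0.928), so the glia-primed values of Cdk4 and Cdk6 were of opposite sign. Cdk2, the partner of E cyclins, averaged 5.37 ± 0.41 in glia-primed cells, 6.31 ± 0.64 in neuron-primed cells, 5.19 ± 0.59 in mesenchyme-primed cells and 6.52 ± 0.81 in unprimed cells. Its changes were -1.14 (adjusted p = 0.344), -0.21 (adjusted p = 0.929) and -1.32 (adjusted p = 0.453). E2f1, which drives E cyclin genes, differed by -0.43 in glia-primed cells (adjusted p = 0.852), -1.41 in neuron-primed cells (adjusted p = 0.354) and -0.91 in mesenchyme-primed cells (adjusted p = 0.726). None of these differences passed.

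Of 5 other CDK inhibitor genes measured, 0 passed in any comparison with unprimed cells by limma. At an unadjusted p under 0.05 there was 1 higher in glia-primed cells, 0 in neuron-primed cells and 2 higher in mesenchyme-primed cells. Over all genes 0.511%, 0.434% and 0.022% passed, and 9.91%, 9.8% and 7.7% reached that unadjusted threshold. Cdkn2b, which encodes the INK4 protein p15 beside Cdkn2a, averaged 5.28 ± 1.67 in glia-primed, 4.75 ± 1.31 in neuron-primed, 3.92 ± 0.73 in mesenchyme-primed and 3.32 ± 0.39 in unprimed cells. Its change was 1.95 in glia-primed cells (SE 0.74, adjusted p = 0.364), 1.43 in neuron-primed cells (adjusted p = 0.576) and 0.59 in mesenchyme-primed cells (adjusted p = 0.896). Cdkn1c, the third Cip/Kip gene, averaged 9.44 ± 1.00 in glia-primed cells, 8.56 ± 0.67 in neuron-primed cells, 10.03 ± 0.27 in mesenchyme-primed cells and 9.04 ± 0.32 in unprimed cells. Its changes were 0.40 (adjusted p = 0.822), -0.48 (adjusted p = 0.791) and 1.00 (adjusted p = 0.601). Both were named after their values were seen.

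E2F target and proliferation genes, which act downstream of the G1 cyclins, included a few that passed. Of 19 measured, 0 rose and 1 fell in glia-primed cells, 0 rose and 2 fell in neuron-primed cells, and 0 rose and 1 fell in mesenchyme-primed cells. The medians were -0.49, -0.36 and -0.12, with 19, 18 and 14 of 19 below unprimed cells. Of all genes 0.511%, 0.434% and 0.022% passed in these comparisons and 49.2%, 50.5% and 49.2% lay above unprimed cells, with medians of -0.01, 0.00 and -0.01. Averaged over the 19 genes, arrays read 8.04 to 8.45 in glia-primed, 8.07 to 8.45 in neuron-primed, 8.30 to 8.72 in mesenchyme-primed and 8.76 to 8.92 in unprimed cells. All primed arrays lay below all unprimed ones on this average, and the Gapdh 3' to 5' ratio given above was higher in the primed groups. By the actin ratio all glia-primed arrays (-0.24 to -0.07) lay above all unprimed ones (-0.70 to -0.39). Neuron-primed arrays (-0.92 to -0.29) spanned the unprimed range, and mesenchyme-primed arrays (-0.40 to -0.08) overlapped with it. The part of these ratios in the average was not tested.

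Gins2, a subunit of the replicative helicase, averaged 7.58 ± 0.33 in glia-primed, 7.63 ± 0.56 in neuron-primed, 7.19 ± 0.34 in mesenchyme-primed and 8.996 ± 0.27 in unprimed cells. It fell by 1.41 in glia-primed (limma adjusted p = 0.0364), by 1.37 in neuron-primed (adjusted p = 0.043) and by 1.81 in mesenchyme-primed cells (adjusted p = 0.0465). Dropping any of 10, 13 and 14 arrays, one at a time, lost these calls. For the mean of the primed groups the change was -1.53 (adjusted p = 0.0084), lost without unprimed replicate 4 (0.059) and with the Gapdh ratio as a covariate (0.286).

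Tk1, the thymidine kinase of the S phase nucleotide supply, averaged 4.84 ± 0.71 in neuron-primed cells and 6.80 ± 0.38 in unprimed cells. It fell by 1.96 in neuron-primed cells (limma adjusted p = 0.0333), a call that dropping any of 7 arrays lost. For the mean of the primed groups its change was -1.82 (adjusted p = 0.0227), lost without any unprimed array (0.0504 to 0.103). Ccne1 and Ccne2 are both E2F targets in textbook accounts. In glia-primed, neuron-primed and mesenchyme-primed cells the Ccne1 changes of -0.51, -1.16 and -0.85 have the sign of those of Gins2 without passing. Those of Ccne2 were -0.33, 0.22 and -0.72, of opposite sign in neuron-primed cells, and did not pass either. Mki67, the proliferation marker, differed from unprimed cells by -0.23, -0.31 and 0.07 in glia-primed, neuron-primed and mesenchyme-primed cells, and none of these passed.

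Among p53 target genes, of which Cdkn1a is one, 0 of 19 measured passed in any primed group by limma. At an unadjusted p under 0.05, 3 were higher and 2 lower in glia-primed, 1 higher and 2 lower in neuron-primed, and 0 higher and 2 lower in mesenchyme-primed cells. Over all genes 0.511%, 0.434% and 0.022% passed, and 9.91%, 9.8% and 7.7% reached that unadjusted threshold. The medians of the list were -0.09, -0.38 and 0.04, with 9, 6 and 10 of 19 above unprimed cells. Of all genes 49.2%, 50.5% and 49.2% lay above unprimed cells. Mdm2, the ubiquitin ligase of p53 and one of its targets, differed by 0.12 in glia-primed cells (adjusted p = 0.958). The 3 that were higher at an unadjusted p under 0.05 there were Phlda3 with 1.39 (adjusted p = 0.246), Plk2, a polo-like kinase gene, with 1.31 (adjusted p = 0.197) and Rrm2b, a ribonucleotide reductase subunit gene, with 1.15 (adjusted p = 0.425). The 2 lower ones were Trp53inp1 with -1.23 (adjusted p = 0.234) and Gadd45a with -1.17 (adjusted p = 0.471). All of these were named after their values were seen.

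Of 15 quiescence genes, described as such in cultured fibroblasts and stem cells, 0 rose and 1 fell in glia-primed and in neuron-primed cells, and 0 passed in mesenchyme-primed cells, where 1 was higher and 0 lower at an unadjusted p under 0.05. At that unadjusted threshold 2 were higher and 4 lower in glia-primed cells, and 0 higher and 3 lower in neuron-primed cells. Over all genes 0.511%, 0.434% and 0.022% passed in glia-primed, neuron-primed and mesenchyme-primed cells, and 9.91%, 9.8% and 7.7% reached the unadjusted threshold. The gene that fell was Gas1, a membrane protein made in growth-arrested fibroblasts, which averaged 8.19 ± 0.31 in glia-primed, 8.33 ± 0.47 in neuron-primed, 9.05 ± 0.27 in mesenchyme-primed and 9.47 ± 0.10 in unprimed cells. It fell by 1.28 in glia-primed (limma adjusted p = 0.0307) and by 1.15 in neuron-primed cells (adjusted p = 0.043). Dropping any of 7 and 13 arrays, one at a time, lost these calls. The list's medians were -0.43, -0.06 and 0.11.

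Because no member passed, the genes most like the 2 members with the largest moderated F over the groups were looked up over the 16 arrays. For Ccne2 they were Acsf3 (Pearson r = 0.83), Nsmce3 (0.81) and Ap2m1 (0.79). For Ccne1 they were Nek4 (0.84), Tmem132a (0.80) and Clec18a (0.80). These are the highest of 18194 correlations over arrays of 4 groups and describe these arrays alone.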

How the data were processed

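Total RNA (2 ug) was labelled and hybridised to 1-colour Affymetrix arrays, per the labels' protocols. The authors deposited 1 linear intensity per probe set and array, made with RMA (no version given) per the submitters' processing notes. Here log2 was taken with no offset and with no further normalization. Of 45101 probe sets, 34958 carried 1 gene symbol in the platform annotation, 932 several and 9211 none. Each of 18194 genes was represented by its probe set with the highest mean. The 4 group means were fitted to all 16 arrays together with limma 3.58.1 in R 4.3.3, two-sided, with Benjamini-Hochberg adjustment over all genes and calls at an adjusted p under 0.05. Arrays have no read depth, and their number limits the precision. The procedure was tested on simulated data.

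The members, the gene lists, the alternatives and the naming rule were chosen with earlier results of these data known. All 10 members are described. Of each gene list other than the cell type markers, the called genes are named. For the 2 members with the largest F, as none was called, the 3 genes with the highest Pearson correlation are named. Same-numbered arrays did not deviate together (24 pairs, r -0.067 to 0.064), so replicate numbers were not treated as pairs. Promoter windows came from RefSeq (GRCm38.p6). The alternatives tried were a replicate block, other scalings, filters, probe set rules, covariates and single arrays left out.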

Additional observations from a re-analysis of the deposited data

Results flagged for a closer look

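Each gene was tested in each group for an array far from the other 3, which gave 40 tests and 3 such arrays. Chance marks about 1 in 20 groups. Cdkn1a read 2.73 on unprimed replicate 4, where the other 3 unprimed arrays read 6.34 to 6.62, and the second Cdkn1a probe set read 5.51 there. Ccnd2 read 10.64 on mesenchyme-primed replicate 4, just below the other mesenchyme-primed arrays at 10.83 to 10.87. Cdkn2c read 1.90 on glia-primed replicate 1, against 2.19 to 2.25 on the other 3 glia-primed arrays. No member was called with all arrays or with any single array left out, so calls cannot show what these 3 arrays changed.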

How the results depend on the processing

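None of the 10 genes was called in any of the 7 comparisons under any of 31 alternatives, 16 of which left out a single array. The filter on dim genes gave no value for Ccne2, Cdkn2a and Cdkn2c. Leaving out probe sets whose names end in _s_at, _x_at or _a_at gave none for Cdkn2a. The lowest adjusted p for a member was 0.102, for Ccne2 between neuron-primed and mesenchyme-primed cells with arrays centred on 8 housekeeping genes, and over its alternatives this p ran from 0.102 to 0.528. Of 2132 recomputed member values, 29 changed sign in fits of all arrays and 40 with an array left out, all without a call. Ccnd2 and Ccne1 stayed lower in each primed group than in unprimed cells under every alternative. Housekeeping centring moved the median of all genes by 0.32 in glia-primed and 0.25 in neuron-primed cells and by -0.07 in mesenchyme-primed ones, and relative to this shift Ccnd2 and Ccne1 were also lower.

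With the replicate number as a block, 0 members were called in each comparison. Over all genes the block gave 52 calls for glia-primed, 63 for neuron-primed and 6 for mesenchyme-primed cells, against 93, 79 and 4 without it. Whether equal numbers mark a pair is not stated, and correlations between the arrays cannot settle it. Of the 16 arrays, 2 correlated best with an array of their own number. Over all alternatives the calls over all genes ran from 25 to 168, 17 to 237 and 0 to 9 in these comparisons, and neuron-primed cells had 237 without neuron-primed replicate 1. The calls of Gins2, Tk1 and Gas1 kept their sign in all alternatives, with adjusted p up to 0.463, 0.188 and 0.428. The cause of these lost calls was not tested. No signal over background was available, which limits Ccne2, Cdkn2a and Cdkn2c.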
